A study of Mus musculus with 12 samples.

Results

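Nuclei of adipose stem and progenitor cells (ASPC) that carried Fmo2 transcripts were compared with the ASPC nuclei of the same library that carried none. A nucleus counted as ASPC when it held at least 3 unique molecules (UMIs) of Pdgfra, Dcn, Lama2, Col1a1, Col1a2, Col3a1 and Fbn1 together, and more than of Adipoq, Plin1, Acsl1, Flt1, Ptprb, Mrc1 and Ptprc together. It counted as Fmo2-positive with at least 1 Fmo2 UMI. The rule found 1532 Fmo2-positive nuclei among 8306 ASPC nuclei, a share of 18.4%, and among 106898 nuclei left after barcodes under 300 genes or over 10% mitochondrial UMIs were dropped. The remaining 6774 ASPC nuclei had no Fmo2 UMI and are called Fmo2-zero. The nuclei were thus chosen by the counts of 15 genes, so the values of these genes are a description and the genes were left out of every test.

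The data were single-nucleus RNA profiles of adipose depots of chow-fed C57BL/6J males, made to compare depots, ages and the response to cold. There were 12 libraries and 12 groups, 1 library each: mPRAT at 1, 2 and 6 months and at 6 months in the cold, iBAT at the same 4 conditions, lPRAT at ages of 2 and 6 months, and 6-month iWAT warm and cold. PRAT is the usual short form of perirenal fat, here a medial (m) and a lateral (l) depot, while iBAT is brown fat between the shoulder blades and iWAT is inguinal white fat. Room temperature was 22 °C and cold was 4 °C for 3 days. The labels give the ages as 4, 8 and 16 weeks as well, so the libraries titled 6 months carry an age of 16 weeks. All groups share strain, sex and diet, and no group carries an engineered allele. The number of mice behind a library is not stated, so the p-values below measure the spread between libraries. No group has a second library. In the comparisons of cold and age the depots therefore serve as replicates, and in that of mPRAT with iBAT the conditions do. These tests ask for changes shared by those depots or conditions.

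Fmo2 encodes a flavin-containing monooxygenase, an enzyme of the endoplasmic reticulum that oxidises nitrogen- and sulphur-containing compounds with NADPH. In this build it lies on chromosome 1 at 162874317-162898726 on the minus strand (GRCm38), between Fmo1 at 162829561-162866610 and Fmo6 at 162916551-162937515. Adipose stromal progenitors are usually described as interstitial cells marked by Dpp4 and Pi16, committed preadipocytes marked by Icam1 and Pparg, and regulatory cells marked by F3 (CD142). Visceral depots are also covered by mesothelium, a sheet of epithelium-like cells that makes matrix genes too. Whether reads of related Fmo genes were miscounted was not tested.

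The label stromal progenitor held for only some of these nuclei. At least 3 UMIs of 6 mesothelial markers (Msln, Upk3b, Muc16, Krt19, Lrrn4 and Bnc1) were found in 531 of the 1532 Fmo2-positive nuclei (34.7%), and a further 130 (8.49%) had 1 or 2. The other 871 (56.9%) had none. Among Fmo2-zero nuclei 408 (6.02%) had at least 3.

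The nuclei with at least 3 mesothelial UMIs were spread unevenly over depots. They made up 383 of 524 Fmo2-positive nuclei in lPRAT (73.1%) and 148 of 664 in mPRAT (22.3%). None was found among 188 Fmo2-positive nuclei in iBAT or 156 in iWAT. In the Fmo2-zero nuclei the shares were 22.7% in lPRAT and 3.72% in mPRAT.

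**Figure D1:**
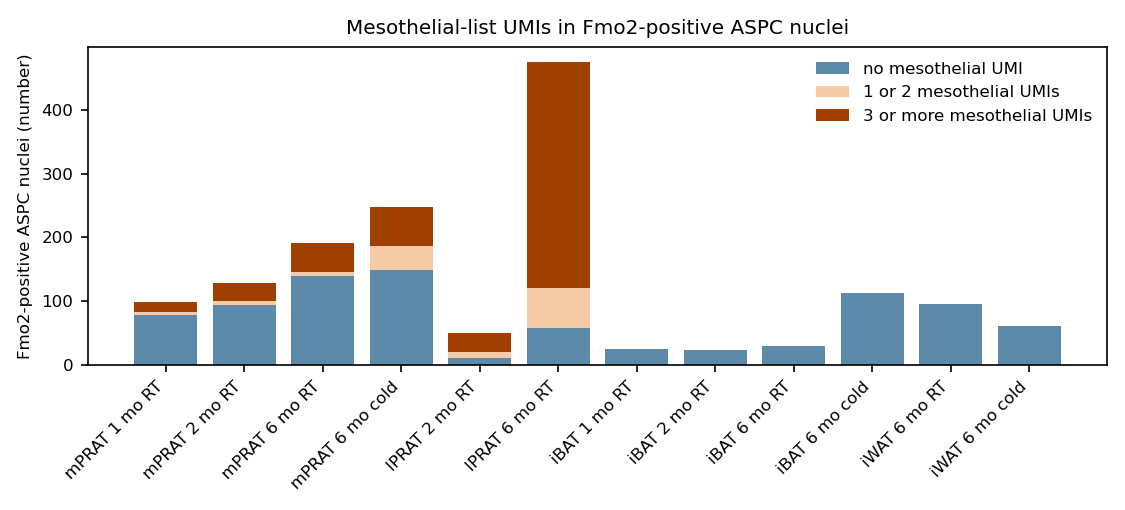
Number of Fmo2-positive ASPC nuclei in each of the 12 libraries (vertical axis), split by how many UMIs of the 6 mesothelial markers a nucleus held. Nuclei with 3 or more lie in the mPRAT and lPRAT libraries and are most of the 475 nuclei of lPRAT at 6 months; iBAT and iWAT have none.

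The rule genes differed between these kinds of nuclei. Pdgfra, the receptor used to mark progenitors, was detected in 0 to 5% of Fmo2-positive nuclei with at least 3 mesothelial UMIs (median 3.14% over the 6 libraries with 10 or more such nuclei). In Fmo2-positive nuclei with none it was detected in 33.3 to 74.7% (median 51.0% over 12 libraries), and in the matching Fmo2-zero nuclei in 22.2 to 64.2% (median 42.0%). Lama2, a laminin chain, gave 0 to 4.24% against 45.5 to 96.6%. Dcn, the proteoglycan decorin, did not separate them, with 72.4 to 93.3% against 51.7 to 92.6%. Col3a1 gave 79.3 to 98.3% (median 91.3%) against 44.7 to 93.7% (median 60.1%), ranges that overlap. The rule genes detected most often in the first set were Col3a1, Dcn and Fbn1, in a median of 91.3, 85.4 and 53.2% of nuclei. That set is named here by its mesothelial UMIs only.

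Comparisons below are given for all Fmo2-positive nuclei and then, as an alternative added after the data were seen, with every ASPC nucleus that held a mesothelial-list UMI left out of both sides. That left 871 Fmo2-positive and 6051 Fmo2-zero nuclei, all depots included, with as few as 11 Fmo2-positive nuclei in lPRAT at 2 months. Below, mesothelial-marked nuclei are all those left out, so they include nuclei with only 1 or 2 such UMIs. In Fmo2-positive nuclei with 1 or 2, Pdgfra was detected in 6.25 to 33.3% and Lama2 in 4.69 to 64.1%. These ranges are over the 2 libraries with 10 or more such nuclei. Whether progenitors were left out with them was not tested.

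Fmo2 itself was lowest in iBAT at 6 months at room temperature and highest in cold mPRAT. Its level in summed ASPC nuclei, in counts per 1000000 (CPM), was 946, 751 and 229 in mPRAT at 1, 2 and 6 months and 1294 in the cold. It was 113, 47.5 and 26.4 in iBAT at the same ages and 163 in the cold. It was 143 and 553 in lPRAT at 2 and 6 months. In iWAT it was 35.6 at room temperature and 78.6 in the cold. The levels of mPRAT lay above all those of iBAT and iWAT, and the levels of lPRAT lay within the range of the others. In these summed values, fewer positive nuclei and less RNA per nucleus cannot be told apart.

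Within Fmo2-positive nuclei, Fmo2 was a low-count gene in many and abundant in others. It gave 1 UMI in 614 nuclei (40.1%), 2 in 251 (16.4%) and 3 or more in 667 (43.5%). The nuclei just inside the threshold are those 614, and those just outside are the 6774 at 0. The level over Fmo2-positive nuclei ranged from 308 to 2593 CPM over libraries, with a median of 908. It was 745 to 3966 CPM in the nuclei with at least 3 mesothelial UMIs (median 1816) and 308 to 1925 CPM in those with none (median 821).

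Detection of a single UMI depends on depth, and Fmo2-positive nuclei were deeper than Fmo2-zero nuclei in each library. Their median UMIs per nucleus were 1461 to 4501 against 1054 to 3471, with ratios from 1.06 in cold iBAT to 2.58 in lPRAT at 2 months. Shares were therefore read after each ASPC nucleus was thinned to 1000 UMIs, with exact 95% Clopper-Pearson intervals that cover counting error only.

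Fmo2-positive nuclei were a larger share of ASPC nuclei in mPRAT than in iBAT at each age. The thinned shares were 23.3% (interval 18.1 to 29.2), 28.1% (22.6 to 34.0) and 13.3% (10.96 to 16.0) at 1, 2 and 6 months. In iBAT they were 3.47% (1.601 to 6.49), 3.72% (2.00 to 6.29) and 2.91% (1.73 to 4.56). At each of the 3 ages the mPRAT interval lay above the iBAT interval, and the iBAT intervals overlapped each other. Before thinning the shares were 26.6, 37.6 and 24.7% in mPRAT and 6.28, 4.58 and 3.32% in iBAT. Thinned to 2000 UMIs they were 42.2, 35.7 and 18.7% in mPRAT and 10.99, 6.58 and 3.59% in iBAT, again with the mPRAT interval above at each age.

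Cold libraries had larger shares than their room-temperature partners in mPRAT and iBAT. The thinned share was 47.2% (42.1 to 52.4) in cold mPRAT against 13.3%, and 11.2% (8.71 to 14.04) in cold iBAT against 2.91%. In iWAT it was 5.84% (4.05 to 8.11) against 2.91% (1.98 to 4.10), intervals that overlap slightly. Thinned to 2000 UMIs, the iWAT shares were 6.23% (3.73 to 9.67) in the cold and 6.11% (4.57 to 7.98) at room temperature, and not thinned 8.58 and 7.72%, each value within the interval of its partner. In mPRAT and iBAT the cold shares stayed above at 2000 UMIs, at 57.8 against 18.7% and 16.7 against 3.59%. Each pair has 1 library on each side, so no spread between animals is known. In cold mPRAT 66.0% of barcodes were over the mitochondrial limit, and the part of this in its share was not tested.

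In lPRAT the thinned share was 7.35% (4.55 to 11.1) at 2 months and 22.1% (19.9 to 24.4) at 6 months. Thinned to 2000 UMIs it was 21.4% (14.3 to 29.9) and 36.5% (33.2 to 39.9), and with at most 2% mitochondrial UMIs 3.28% at 2 months. Without nuclei that held a mesothelial-list UMI it was 2.45% and 4.52%. The same step left 18.9, 24.5, 11.5 and 42.4% in the 4 mPRAT libraries, and iBAT and iWAT stayed between 2.92 and 11.2%. Most Fmo2-positive nuclei of lPRAT were thus of the mesothelial-marked kind, and most of those of mPRAT were not.

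**Figure D2:**
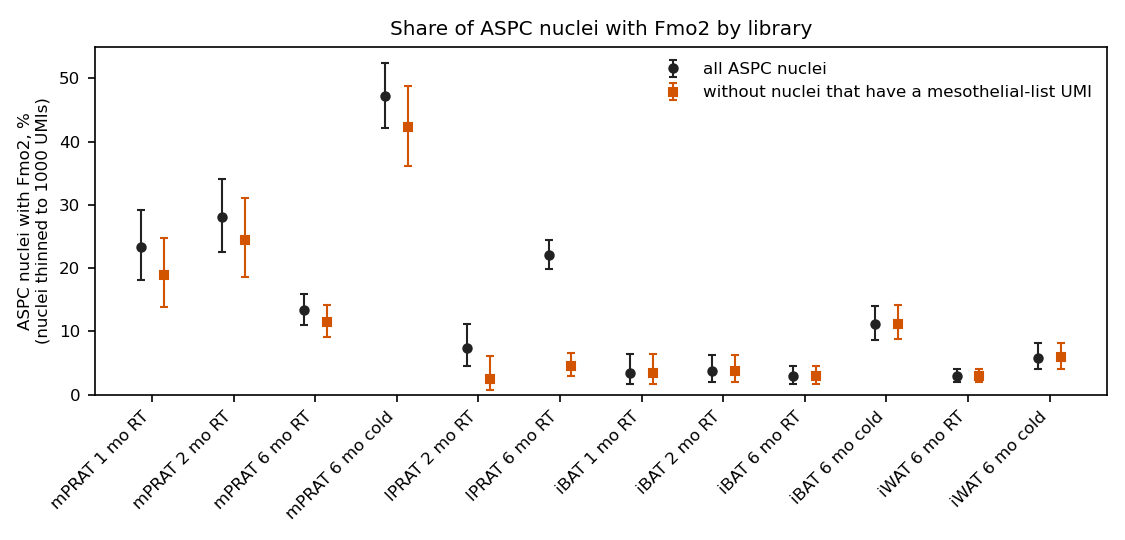
Share of ASPC nuclei with at least 1 Fmo2 UMI in each library after thinning to 1000 UMIs, in percent, with exact 95% intervals, for all ASPC nuclei (circles) and without nuclei that had a mesothelial-list UMI (squares). Cold mPRAT is the highest at 47.2%, and lPRAT at 6 months is at 22.1% with all nuclei and 4.52% without the mesothelial-marked ones.

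Fmo2 in other nuclei sets the scale for these shares. In nuclei classed by macrophage genes the thinned share was 0 to 1.01%, at median depths of 912 to 2452 UMIs, while ASPC nuclei had median depths of 1108 to 3582. In nuclei classed by adipocyte genes it was 0.165 to 2.73%. The ASPC share was above both in every library. Nuclei classed by the endothelial rule genes had 4.41 to 15.9% in 10 libraries, 33.3% (24.9 to 42.6) in lPRAT at 6 months and 0 of 5 nuclei in lPRAT at 2 months. The endothelial share was above the ASPC share in iBAT at room temperature, in iWAT and in lPRAT at 6 months, with intervals that did not overlap in lPRAT at 6 months and in iWAT at room temperature. Fmo2 UMIs were thus not restricted to ASPC nuclei.

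Across all tested genes, 824 of 10737 differed between Fmo2-positive and Fmo2-zero nuclei at an adjusted p below 0.05 (7.67%), 385 higher (3.59%) and 439 lower (4.09%). The test was edgeR's quasi-likelihood test with a term for each library, on counts summed per library, with Benjamini-Hochberg adjustment over all genes. DESeq2 called 732 (6.82%), 426 higher (3.97%) and 306 lower (2.85%). With equal numbers of both kinds drawn at matched depth 452 of 6925 were called (6.53%), 295 higher (4.26%) and 157 lower (2.27%). With mesothelial-marked nuclei left out as well 234 of 5379 were called (4.35%), 126 higher (2.34%) and 108 lower (2.01%). Drawing equal numbers also left out Fmo2-positive nuclei, with 91 of 98 kept in mPRAT at 1 month in the first of these draws. Without mesothelial-marked nuclei 375 of 8888 were called (4.22%), 144 higher (1.62%) and 231 lower (2.6%). Of the 385 higher genes 78 were also higher there (20.3% of 385 and 54.2% of 144), and of the 439 lower genes 177 (40.3% and 76.6%). No gene was called in opposite directions.

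Terminal complement component C7 was among the genes that were higher in both settings. C7 was at 207 CPM in the lowest library, 794 in the median and 3209 in the highest among Fmo2-positive nuclei, and at 90.2, 178 and 462 among Fmo2-zero nuclei. It was higher in 12 of 12 libraries, although the ranges overlap across libraries. Its log2 fold was 2.06 ± 0.25 (SE, adjusted p = 1.67e-05 by edgeR) and 2.55 ± 0.20 without mesothelial-marked nuclei (3.13e-10).

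Gria4, a subunit of AMPA glutamate receptors, gave 59.0, 403 and 709 CPM (lowest, median, highest) against 10.9, 56.7 and 266. It was higher in 12 of 12 libraries, with a log2 fold of 2.38 ± 0.29 (adjusted p = 1.1e-05, edgeR), and 3.05 ± 0.21 without mesothelial-marked nuclei (1.97e-11). Plcxd3, a phospholipase C-like gene, gave 21.5, 275 and 824 CPM against 12.3, 59.2 and 281, with log2 folds of 2.31 ± 0.26 and 3.01 ± 0.20. Chrdl1, an antagonist of bone morphogenetic proteins (BMPs), gave 45.2, 119 and 266 CPM against 5.26, 15.4 and 136, with log2 folds of 1.77 ± 0.29 and 1.74 ± 0.32.

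Other genes with the largest positive folds were the poly(A) polymerase Tent5c at 2.41 ± 0.35, the zinc-sensing receptor Gpr39 at 2.15 ± 0.31, the transcriptional repressor Prdm6 at 1.95 ± 0.31, the ephrin receptor Epha3 at 1.94 ± 0.37 and the tetraspanin Tspan11 at 1.88 ± 0.38. All 5 were also called without mesothelial-marked nuclei, with log2 folds of 2.65, 2.10, 2.2, 2.84 and 2.25. Epha3 and Tspan11 were not called in the mPRAT and lPRAT libraries alone, at 0.55 (adjusted p = 0.421) and 0.93 (0.379).

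Some named genes had smaller folds without mesothelial-marked nuclei, and Rspo1 and Bmpr1b were then not called. Rspo1, which amplifies Wnt signals, went from a log2 fold of 1.81 ± 0.20 to 1.44 ± 0.53 (adjusted p = 0.161, edgeR), with a larger standard error. Bmpr1b, a BMP receptor, went from 1.73 ± 0.28 to 0.77 ± 0.42 (0.499). Spock2, a matrix proteoglycan, at 1.86 ± 0.20, and Gas6, a ligand of TAM receptors, at 1.65 ± 0.16, were still called at smaller folds, 1.19 ± 0.32 and 0.90 ± 0.23.

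The 2 kinds of Fmo2-positive nuclei had different leading genes in mPRAT and in lPRAT, which are given apart because most unmarked nuclei came from mPRAT (459, against 68 from lPRAT) and most of those with at least 3 mesothelial UMIs from lPRAT (383, against 148 from mPRAT). In mPRAT C7 was at 1378 CPM in Fmo2-positive nuclei with no mesothelial UMI, against 136 in those with at least 3, 238 in Fmo2-zero nuclei with none and 59.3 in Fmo2-zero nuclei with at least 3. In lPRAT the C7 levels were 935, 172, 122 and 211 CPM in the same order. Gria4 gave 760.5, 105, 120 and 119 CPM in mPRAT and 321, 33.6, 23.0 and 50.6 in lPRAT. Rspo1 gave 13.5, 308, 5.57 and 302 CPM in mPRAT and 35.1, 368, 16.95 and 308 in lPRAT. Wt1, a transcription factor of the mesothelium and kidney, gave 35.6, 864, 70.9 and 652 CPM in mPRAT and 280.5, 1038, 266 and 1083 in lPRAT. In both depots C7 and Gria4 were thus highest in 1 of the 4 kinds, and Rspo1 and Wt1 were high wherever mesothelial UMIs were, with or without Fmo2.

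**Figure D3:**
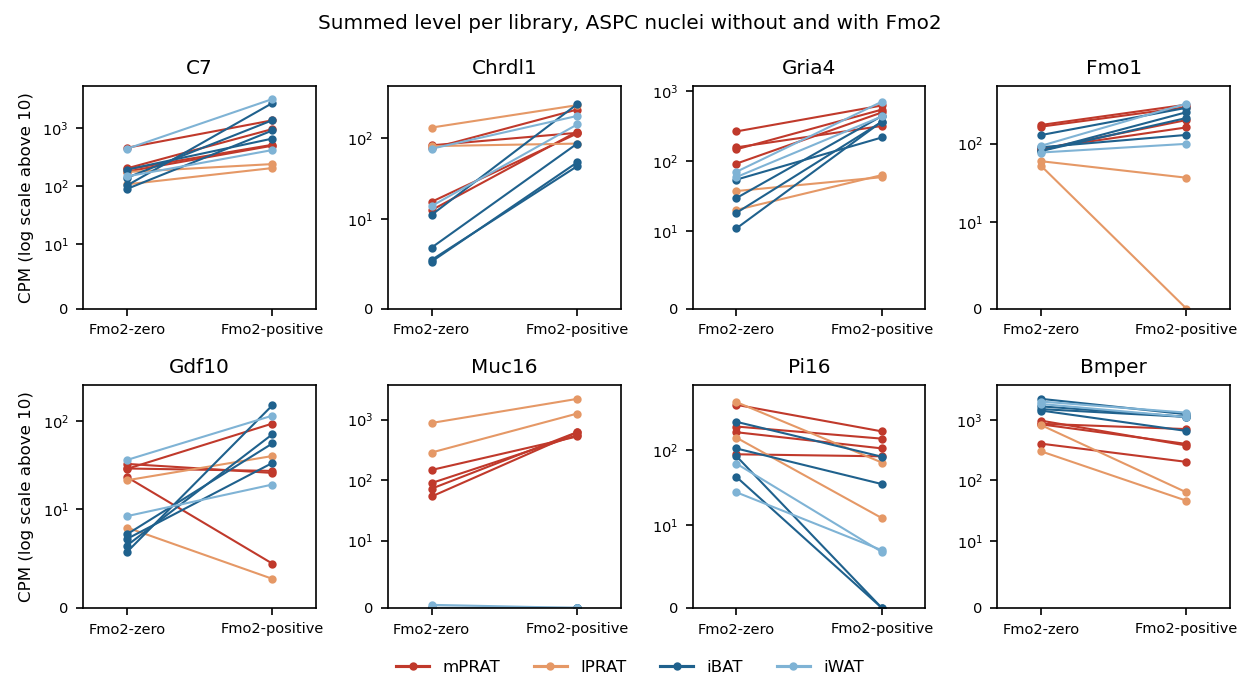
Summed level of 8 genes in the Fmo2-zero and Fmo2-positive ASPC nuclei of each library, in CPM on a scale that is logarithmic above 10; each line joins the 2 values of 1 of the 12 libraries and is coloured by depot. C7, Chrdl1 and Gria4 are higher in the Fmo2-positive nuclei of all 12 libraries, Pi16 and Bmper are lower in all 12, and Muc16 is at or near 0 in iBAT and iWAT.

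Genes named after leaving out mesothelial-marked nuclei added the protocadherin Pcdh11x (log2 fold 2.04 ± 0.32), the TGF-β family member Gdf10 (1.81 ± 0.30), the GABA receptor subunit Gabra3 (1.78 ± 0.22), the vesicle priming factor Unc13b (1.72 ± 0.21) and the sodium-activated potassium channel Kcnt2 (1.68 ± 0.20). Each was higher in 11 of 12 libraries. In the iBAT and iWAT libraries alone, where no Fmo2-positive nucleus held a mesothelial-list UMI, 274 of 9455 genes were called (2.9%), 126 higher (1.33%) and 148 lower (1.57%). In the mPRAT and lPRAT libraries without mesothelial-marked nuclei 272 of 7623 were called (3.57%), 98 higher (1.29%) and 174 lower (2.28%). Between these separate libraries 32 higher genes were shared (25.4% of 126 and 32.7% of 98) and 53 lower genes (35.8% of 148 and 30.5% of 174), and 3 genes had opposite directions. With all nuclei of mPRAT and lPRAT 41 higher genes (32.5% of 126 and 7.54% of 544) and 67 lower genes (45.3% of 148 and 15.4% of 434) were shared. Then 9 of the higher and 9 of the lower genes of iBAT and iWAT had the opposite direction.

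Among the genes with the largest negative folds, Kcnh8, Adamts16 and Rasgef1c were nearly absent from Fmo2-positive nuclei. Kcnh8, a potassium channel, had 0 UMIs in all Fmo2-positive nuclei and 203 in Fmo2-zero nuclei, where it was at 0 to 116 CPM over libraries and above 0 in 11 of 12. It was called by edgeR (adjusted p = 3.27e-04) and not by DESeq2 (0.118). Adamts16, a metalloprotease, had 3 UMIs against 561, with 0 to 8.99 CPM against 7.97 to 118, lower in 12 of 12 libraries. Rasgef1c had 2 UMIs against 206, with 0 to 4.49 CPM against 0 to 142, lower in 11 of 12. Slc35f1 had a log2 fold of -4.48 ± 0.47, the adhesion molecule Chl1 -4.31 ± 0.44, Luzp2 -3.94 ± 0.44, the potassium channel partner Dpp6 -3.80 ± 0.34, the potassium channel Kcna2 -3.38 ± 0.46, Edil3 -3.30 ± 0.47 and Stac -3.23 ± 0.34. All 10 stayed called and lower without mesothelial-marked nuclei. With depth matched, where fewer genes were tested, 146 of all 439 lower genes were called lower again (33.3%). For the higher genes it was 252 of 385 (65.5%). The setting without mesothelial-marked nuclei also named Akap6 (-4.68 ± 0.49) and the smooth muscle myosin Myh11 (-3.72 ± 0.42).

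Markers of other cells moved with this contrast. With all nuclei 3.59% of all genes were higher and 4.09% lower, the background for the counts of markers. Of 7 mural markers tested, genes of pericytes and smooth muscle, 6 were lower in Fmo2-positive nuclei (median log2 fold -1.92), among them Notch3 at -1.29 ± 0.25. The summed level of the 8 mural markers was 11.5 to 624 CPM in Fmo2-positive and 57.5 to 1268 CPM in Fmo2-zero nuclei. All 4 skeletal muscle markers were lower too, with summed levels of 0 to 129 against 2.34 to 3177 CPM. Of 6 mesothelial markers 5 were higher (median 1.83). Among 4 Schwann markers Cdh19 was lower at -1.02 ± 0.28, and none of 7 adipocyte, 3 epithelial, 5 lymphocyte and 2 lymphatic markers was called. The endothelial gene Kdr at 1.297 ± 0.37 and the macrophage gene Dab2 at 1.01 ± 0.16 were higher, 1 of 6 and 1 of 4 tested. A further setting left out mesothelial-marked nuclei and those with at least 2 UMIs of a mural, Schwann (Scn7a not counted), muscle or epithelial list. There 294 of 7257 genes were called (4.05%), 155 higher (2.14%) and 139 lower (1.92%). The part of these markers in single genes was not tested otherwise.

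More of the regulatory (F3/CD142) progenitor genes were called without mesothelial-marked nuclei than with all nuclei. With all nuclei, 1 of 9 tested genes was higher (3.59% of all genes), the Wnt amplifier Rspo2 (log2 fold 3.71 ± 0.51, adjusted p = 8.51e-05 by edgeR), and the list median was 0.57. Without mesothelial-marked nuclei 7 of 9 were higher (median 1.03, all genes -0.05), against a share of 1.62% higher over all genes tested. The other 6 were Gdf10 at 1.81 ± 0.30 (1.49e-04), the homeobox gene Meox2 at 1.63 ± 0.35 (0.00337), the calcification inhibitor Mgp at 1.08 ± 0.29 (0.024), the matrix protein vitrin (Vit) at 1.03 ± 0.24 (0.0074), Igfbp3, a binding protein of insulin-like growth factors, at 0.89 ± 0.23 (0.0183), and tissue factor, F3, at 0.81 ± 0.19 (0.00669). With all nuclei these 6 were at 1.14, 1.08, 0.84, 0.57, 0.16 and 0.50. The enzyme Cpe, at 0.48 with all nuclei and 0.19 without, and the cholesterol transporter Abcg1, at 0.07 and 0.29, were not called in either setting, and Clec11a was not tested.

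The regulatory genes were also fitted by depot. In the iBAT and iWAT libraries alone 6 of 9 were higher, beside 1.33% of all genes: Rspo2 at 4.16, Meox2 at 2.37, Vit at 2.24, Gdf10 at 2.24, Mgp at 1.75 and F3 at 1.16. In the mPRAT and lPRAT libraries with all nuclei 978 of 9589 genes were called (10.2%, 5.67% higher and 4.53% lower), but no regulatory gene, with F3 at -0.15, Vit at -0.31 and Meox2 at -1.18. In the same libraries without mesothelial-marked nuclei 2 of 7 were higher, beside 1.29% of all genes: Gdf10 at 1.39 ± 0.38 (adjusted p = 0.0357, edgeR) and Igfbp3 at 1.12 ± 0.21 (0.00149). F3 was then at 0.25 ± 0.25, Vit at 0.30 ± 0.20 and Meox2 at 0.14 ± 0.48, none of them called. Rspo2 rested on 97 UMIs in Fmo2-positive nuclei, 92 of them in iBAT and iWAT, and Abcg1 rested on 48.

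Levels show how wide these genes spread. Without mesothelial-marked nuclei F3 was at 30.5, 175 and 444 CPM (lowest, median, highest library) in Fmo2-positive and 49.6, 66.8 and 260 in Fmo2-zero nuclei, and higher in 9 of 12 libraries. Gdf10 gave 7.61, 50.6 and 448 CPM against 5.68, 19.6 and 36.5, higher in 11. Meox2 gave 10.7, 64.3 and 319 CPM against 2.81, 19.8 and 71.0, higher in 10. The 3 genes overlapped between the 2 kinds of nuclei across libraries.

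Of 14 interstitial progenitor genes tested, 5 were lower with all nuclei, beside 4.09% of all genes, none was higher and 9 did not pass. The median log2 fold of the list was -0.54, beside -0.06 for all genes. The peptidase inhibitor gene Pi16 was at 0, 52.1 and 180 CPM in Fmo2-positive and 27.5, 127 and 445 CPM in Fmo2-zero nuclei, lower in 12 of 12 libraries, with a log2 fold of -1.54 ± 0.26 (adjusted p = 4.32e-04, edgeR). The complement regulator Cd55 at -1.16, Limch1 at -0.98, Efhd1 at -1.55 and Dact2 at -1.85 were the other 4. Without mesothelial-marked nuclei 6 of 12 were lower, beside 2.6% of all genes (median -0.78, all genes -0.05), and the dipeptidase Dpp4 joined them at -1.16 ± 0.17 (4.48e-05). Dpp4 was at 946 CPM in mPRAT and 1028 in lPRAT in Fmo2-positive nuclei with at least 3 mesothelial UMIs, and at 135 and 286 CPM in those with none.

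Of 12 committed preadipocyte genes 8 were lower with all nuclei (median -0.71), beside 4.09% of all genes. Without mesothelial-marked nuclei 3 were lower (median -0.32), beside 2.6%, and 9 did not pass. Bmper, a modulator of BMP signals, was at 45.9, 679.6 and 1318 CPM against 302, 1200.2 and 2228, lower in 12 of 12 libraries, with log2 folds of -1.17 ± 0.21 (7.06e-04) and -0.66 ± 0.11 (3.02e-04). The basement membrane collagen Col15a1, at -1.17 and -0.64, and lipoprotein lipase, Lpl, at -0.88 and -0.50, were called in both. Pparg, the central adipogenic receptor, at -0.71 ± 0.12 and Ggt5 at -0.85 ± 0.16 were called with all nuclei only. Of 21 adipogenic regulators 3 were lower with all nuclei, Ebf2 (-1.25), Zfp423 (-0.63) and Ebf3 (-0.77). Without mesothelial-marked nuclei Ebf2 was lower at -0.68 ± 0.11 and Foxp2 higher at 0.78 ± 0.21.

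**Figure D4:**
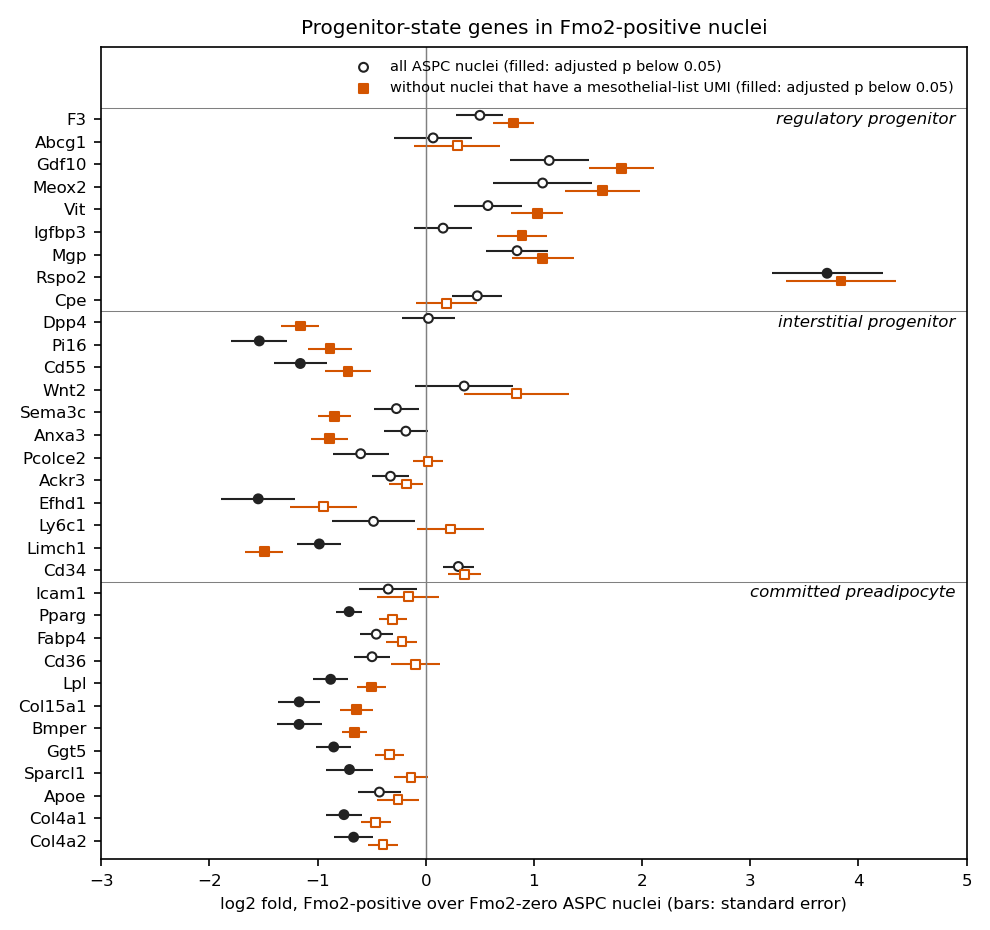
Log2 fold of Fmo2-positive over Fmo2-zero ASPC nuclei (horizontal axis, bars are standard errors) for genes of the 3 progenitor lists tested in both settings, with all nuclei (circles) and without nuclei that had a mesothelial-list UMI (squares); filled points have an adjusted p below 0.05. The regulatory list goes from 1 to 7 filled points to the right of 0, and the called genes of the interstitial and committed lists lie to the left.

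Thinned to 1000 UMIs, 18.2 to 57.7% of Fmo2-positive nuclei held a UMI of any regulatory gene over libraries, against 11.4 to 40.1% of Fmo2-zero nuclei. For any interstitial gene the ranges were 9.52 to 92.9% and 20.7 to 83.9%, and for any committed gene 35.7 to 100% and 63.0 to 97.2%. These ranges overlap across libraries. They include mesothelial-marked nuclei and do not show the difference within each library.

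The neighbour of Fmo2 on chromosome 1, Fmo1, was the flavin monooxygenase gene called in both settings. It was at 0, 206 and 324 CPM against 52.1, 85.5 and 173, higher in 10 of 12 libraries, with log2 folds of 0.74 ± 0.21 (adjusted p = 0.0318, edgeR) and 1.24 ± 0.15 (1.02e-06). Of 11 oxidation and detoxification genes tested, 3 were higher with all nuclei, beside 3.59% of all genes, among them the glutathione transferase Gsta3 at 1.33 ± 0.22. Without mesothelial-marked nuclei 2 were higher, beside 1.62%, Fmo1 and the alcohol dehydrogenase Adh1 at 0.86 ± 0.18.

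Of 10 retinoid genes 3 were higher and 1 lower with all nuclei, beside 3.59 and 4.09% of all genes. Aldh1a1, which makes retinoic acid, was at 478, 855 and 1257 CPM against 320.1, 539.9 and 1011, higher in 12 of 12 libraries, with log2 folds of 0.58 ± 0.11 and 0.54 ± 0.11. Aldh1a2, at 1.74 ± 0.32, and Aldh1a3, at -1.25 ± 0.27, were called with all nuclei only.

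Among secreted signals few genes were called in both settings. Over all genes 3.59% were higher and 4.09% lower with all nuclei, and 1.62 and 2.6% without mesothelial-marked nuclei. Of 15 Wnt genes Rspo1, Wnt2b (1.68 ± 0.27) and Wnt9a (1.21 ± 0.26) were higher and Dkk2 (-1.54 ± 0.32) and Rspo3 (-1.73 ± 0.38) lower with all nuclei. Without mesothelial-marked nuclei only Rspo3 was called among the 11 tested genes of this list, at -1.49 ± 0.42. Rspo2 is counted in the regulatory list and not in this one, and it was higher in both settings. Of 25 growth factor and receptor genes Bmp4 (1.22 ± 0.21) and Kitl (0.73 ± 0.18) were higher and Pdgfrb, Fst and Fgf10 lower. Without mesothelial-marked nuclei, hepatocyte growth factor, Hgf, was higher at 1.19 ± 0.22 and the activin antagonist Fst lower at -0.78 ± 0.22 among 22.

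Of 33 matrix genes 4 were higher and 11 lower with all nuclei, beside 3.59 and 4.09% of all genes (median -0.29, all genes -0.06). Without mesothelial-marked nuclei 3 of 32 were higher and 6 lower, beside 1.62 and 2.6%, and the median of -0.07 was near that of all genes, -0.05. Fibulin 1, Fbln1, was higher in both at 1.23 ± 0.16 and 1.24 ± 0.18, and Col14a1 was higher at 0.71 ± 0.16 in the second. Col5a3 (-1.36 and -1.01), periostin, Postn (-1.67 and -1.07), and fibronectin, Fn1 (-1.14 and -0.64), were lower in both. Glucocorticoid response genes gave 1 of 15 higher, Tsc22d3 at 0.55 ± 0.15. None of 9 immediate early and stress genes was called in either setting. Among 16 depot position genes Wt1 was higher at 1.24 ± 0.16 and Hoxc8 and Pax3 lower with all nuclei, and none was called without mesothelial-marked nuclei, where Wt1 had the opposite sign at -0.65. Of 2 cell cycle genes tested Top2a was lower at -1.92 ± 0.52.

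The size of the difference between Fmo2-positive and Fmo2-zero nuclei itself differed between depots for 449 of 10737 genes (4.18%, edgeR interaction test), and for 357 of the 6157 genes to which DESeq2 gave an adjusted p (5.8%). Without mesothelial-marked nuclei it differed for 120 of 8888 (1.35%), 87 of them the same genes (19.4% of 449 and 72.5% of 120). The lPRAT libraries were all at room temperature and the iWAT libraries all at 6 months. In this test depot thus cannot be fully told apart from age and cold. The smallest adjusted p was that of Rbfox1, a splicing regulator, at 1.24e-13. Rbfox1 was at 3109 to 6683 CPM in Fmo2-positive nuclei of mPRAT, 7979 and 10008 in lPRAT and 6.76 to 106 in iBAT and iWAT. Without mesothelial-marked nuclei it was at 19.8 to 298 CPM in mPRAT, and its adjusted p was 0.0491.

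Of the progenitor lists, 5 of 9 regulatory, 8 of 14 interstitial and 5 of 12 committed genes differed between depots with all nuclei, beside 4.18% of all genes, and 2 of 9, 1 of 12 and 1 of 12 without mesothelial-marked nuclei, beside 1.35%. Vit had an adjusted p of 1.52e-06, Meox2 1.08e-04, F3 0.00295, Pi16 2.33e-04 and Bmper 6.44e-06 (edgeR). Mgp at 0.572 did not pass, which does not show that it acted alike in all depots.

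Fmo2-positive nuclei of mPRAT and iBAT were compared over the 4 matched conditions (1, 2 and 6 months and cold). Fmo2-zero nuclei did not enter this comparison, so it does not show that a difference is particular to Fmo2-positive nuclei. Of 6617 genes 740 differed (11.2%), 486 higher in mPRAT (7.34%) and 254 lower (3.84%), by edgeR with a term for each condition. DESeq2 called 524 (7.92%). Without library-size scaling by TMM 57.7% of the called genes were higher in mPRAT, in place of 65.7%. Without mesothelial-marked nuclei 381 of 4576 differed (8.33%), 213 higher and 168 lower. Without the cold pair 448 of 3695 genes were called. In the first comparison the mPRAT side was led by genes that had 0 UMIs in iBAT: Pkhd1l1 was at least 141-fold higher, the mucin Muc16 at least 104-fold, Wt1 at least 57.7-fold, Col4a6 at least 54.2-fold and the uroplakin Upk1b at least 49.6-fold (limit of 3 counts over the group). Muc16 is 1 of the 6 mesothelial markers, so leaving out mesothelial-marked nuclei set it to 0 by definition. The others did not have enough counts to be tested there.

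Of 7 depot position genes tested 4 were higher in mPRAT and 1 lower with all nuclei, beside 7.34 and 3.84% of all genes. In the second comparison, of 4 tested, 3 were higher and 1 lower, beside 4.65 and 3.67%. The one that was lower was Tbx15. The T-box factor Tbx15 was at 22.8, 9.93, 17.96 and 24.1 CPM in mPRAT at 1, 2 and 6 months and in the cold, and at 538, 473, 319 and 470 CPM in iBAT. Its log2 fold was -4.35 ± 0.33 (adjusted p = 1.32e-08, edgeR) and the groups did not overlap. In Fmo2-zero nuclei Tbx15 was at 7.06 to 17.8 CPM in mPRAT and 444 to 549.6 CPM in iBAT, so this gap was not particular to Fmo2-positive nuclei. The ligand Bmp5 was at 0, 0, 7.18 and 8.02 CPM against 151, 215, 301 and 364 (-5.56 ± 0.47), and 0 to 32.5 against 73.8 to 306 in Fmo2-zero nuclei.

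On the mPRAT side were Hgf and the transcriptional cofactor Eya4. Hgf was at 213, 427, 831 and 487 CPM against 0, 64.5, 17.7 and 18.6, with a log2 fold of 4.58 ± 0.40 (adjusted p = 5.32e-08, edgeR). Eya4 was at 693, 705, 657 and 671 CPM against 0, 0, 35.4 and 26.6, with a log2 fold of 5.09 ± 0.40 (1.32e-08). Neither overlapped between depots. The iBAT values at room temperature came from 24, 23 and 29 nuclei at 1, 2 and 6 months, with as few as 46477 UMIs in all. Low values and zeros in these iBAT libraries, here and below, thus rest on few UMIs. Other genes that were higher in mPRAT were Nkain2 (5.15 ± 0.41), Vegfd (3.33 ± 0.36), Bmp6 (3.69 ± 0.52), Fbln1 (3.41 ± 0.44), Foxp2 (3.06 ± 0.32) and Meis1 (2.22 ± 0.26), and Thsd4 had 521 UMIs against 3. Lower in mPRAT beside Bmp5 and Tbx15 were Zfhx4 (-4.17 ± 0.33), Shisa6 (-3.92 ± 0.70), the phosphodiesterase Pde11a (-3.80 ± 0.63), the glucose transporter Slc2a3 (-3.43 ± 0.68) and Hmcn2 (-3.24 ± 0.43).

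The regulatory genes were split between the depots. F3 was at 30.5, 44.7, 199 and 85.6 CPM in mPRAT and 151, 237, 301 and 444 in iBAT, lower in mPRAT in 4 of 4 pairs (log2 fold -1.70 ± 0.33, adjusted p = 0.0011, edgeR), with an overlap at 199 and 151. Meox2 was lower in mPRAT at -3.30 ± 0.50 (8.89e-05), with 10.7 to 21.6 against 16.8 to 319 CPM, and Rspo2 had 3 UMIs against 19. Igfbp3 was higher in mPRAT, at 305, 164, 384 and 142 CPM against 0, 0, 53.1 and 21.3 (3.36 ± 0.44, 1.82e-05), and so were Cpe (2.65 ± 0.75) and Vit (1.11 ± 0.29). Mgp at -0.34 ± 0.44 and Gdf10 at -0.28 ± 0.45 did not pass the test. Thus 3 of 8 tested regulatory genes were higher and 3 lower, beside 4.65 and 3.67% of all genes. With all nuclei 2 of 9 were higher and 3 lower, beside 7.34 and 3.84%.

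With all nuclei 6 of 10 interstitial genes were higher in mPRAT, beside 7.34% of all genes (median log2 fold 2.01, all genes 0.04), and 9 of 11 committed genes were lower, beside 3.84% (median -1.33). In the second comparison 6 of 9 interstitial genes were higher in mPRAT, beside 4.65% of all genes (median log2 fold 1.59, all genes 0.02), and 4 of 11 committed genes were lower, beside 3.67% (median -0.92). Pi16 was at 244, 144, 153 and 275 CPM against 0, 0, 35.4 and 82.4 (2.43 ± 0.43) without overlap, Sema3c was at 2.40 ± 0.35, Cd55 at 2.71 ± 0.50 and Dpp4 at 1.45 ± 0.40. Pparg was at -1.57 ± 0.26 and the fatty acid transporter Cd36 at -2.01 ± 0.37. Adipocyte markers were lower in mPRAT in 4 of 6 tested, among them the uncoupling protein Ucp1 at -2.33 ± 0.55 and the lipase Lipe at -1.61 ± 0.29. In the same setting 2 of 2 mural markers were lower (median -1.91), and 1 of 2 macrophage and 1 of 2 Schwann markers were higher. Over libraries the summed levels in mPRAT and iBAT were 398 to 838 and 940 to 2301 CPM for adipocyte, 69.5 to 282 and 195 to 624 for mural, 308 to 363 and 134 to 258 for macrophage, and 792 to 1029 and 283 to 760 CPM for Schwann markers. The adipocyte sums include the rule genes Adipoq, Plin1 and Acsl1, and the macrophage sums include Mrc1 and Ptprc. The ASPC rule limited the counts of these genes. Within these lists the Schwann factor Sox10 had 0 UMIs in all 8 libraries, and the macrophage receptor Csf1r and the pericyte gene Higd1b in 7 each. In those libraries the summed levels came from other genes of the lists, so these zeros do not show that such cells were absent. The part of these markers in the progenitor lists was not tested.

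**Figure D5:**
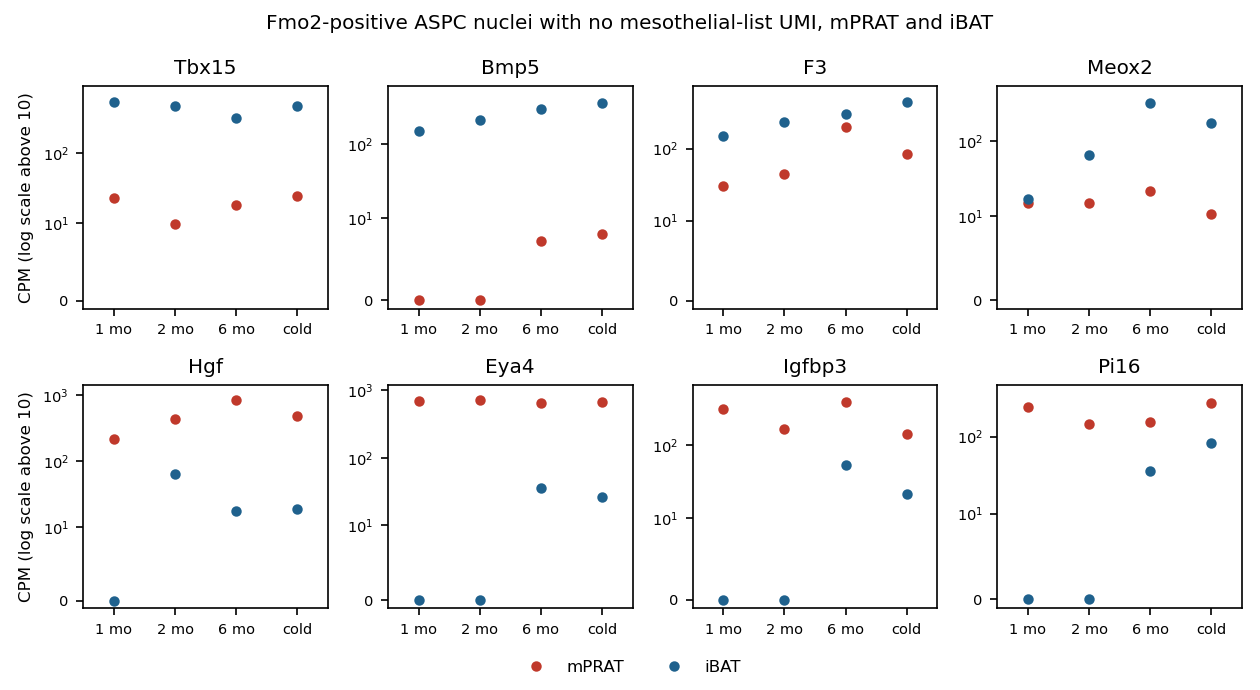
Level of 8 genes in Fmo2-positive ASPC nuclei with no mesothelial-list UMI, in CPM on a scale that is logarithmic above 10, for mPRAT and iBAT at 1, 2 and 6 months and in the cold at 6 months; each point is 1 library. Tbx15 and Bmp5 are higher in all 4 iBAT libraries, and Hgf, Eya4, Igfbp3 and Pi16 in all 4 mPRAT libraries.

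Cold against room temperature was compared in Fmo2-positive nuclei over the mPRAT, iBAT and iWAT pairs at 6 months. The depots served as replicates, so few calls do not show that cold had little effect within a depot. With all nuclei 2 of 7700 genes were called, both lower in the cold (0.026%): the B cell gene Bank1 at -6.14 ± 0.85 and the calcium channel Cacna1e at -5.55 ± 0.78 (both adjusted p = 0.0198, edgeR). DESeq2 called 0, with 163 genes at an unadjusted p below 0.05, against 402 for edgeR. Without the mPRAT pair edgeR called 1, without the iBAT or the iWAT pair 11 each, and with likely doublets removed 0. Bank1 was at 128 CPM in Fmo2-positive nuclei of mPRAT at room temperature and 136 in its Fmo2-zero nuclei, against 1.36 and 2.42 in the cold library.

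Without mesothelial-marked nuclei 17 of 6912 genes were called in the cold (0.246%), 3 higher (0.0434%) and 14 lower (0.203%). The ligand Bmp4 was at 61.5, 37.2 and 81.1 CPM in cold mPRAT, iBAT and iWAT against 3.59, 0 and 6.96 at room temperature. Its log2 fold was 3.75 ± 0.64 (adjusted p = 0.0279, edgeR). The values did not overlap, but the 0 in iBAT came from 29 nuclei with 56476 UMIs in all. That is too few to tell it from the cold iBAT value of 37.2. The homeobox gene Pbx3 at 1.64 ± 0.30 and the calcineurin regulator Rcan2 at 1.42 ± 0.26 were the other 2. The lipid droplet protein Cidec was at 10.7, 23.9 and 27.0 CPM against 57.5, 124 and 454 (-3.01 ± 0.42, 0.0111). The carbonic anhydrase Car3 was at 118, 47.8 and 81.1 CPM against 235, 319 and 602 (-2.01 ± 0.36). Both are adipocyte genes. The summed level of the 10 adipocyte markers in these nuclei was 398, 940 and 351 CPM in the cold against 682, 2160 and 1747. These sums include the rule genes Adipoq, Plin1 and Acsl1, whose counts the ASPC rule limited. Of the 7 markers tested 1 was called (Cidec), and the part of adipocyte markers in the result was not tested. Also lower were Fgf14 (-3.44 ± 0.40), the circadian factor Npas2 (-3.13 ± 0.55), the muscle myosin chain Myl1 (-3.0 ± 0.50), the neuregulin receptor Erbb4 (-2.70 ± 0.40), Pakap (-2.30 ± 0.39) and Tenm4 (-1.89 ± 0.34).

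None of 9 regulatory genes was called in the cold in either setting, nor any of 11 interstitial or 12 committed genes. With all nuclei the log2 folds were 0.33 ± 0.36 for F3, 1.14 ± 0.38 for Mgp (adjusted p = 0.527, edgeR), 0.64 ± 0.43 for Cpe, -1.304 ± 0.43 for Igfbp3, -0.36 ± 0.41 for Meox2, -0.04 ± 0.63 for Gdf10, -0.98 ± 0.77 for Rspo2, -1.12 ± 1.00 for Abcg1 and -0.07 ± 0.35 for Vit.

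Pair by pair, C7 went from 974 to 1379 CPM in mPRAT, from 921 to 1384 in iBAT and from 423 to 3209 in iWAT. The log2 ratios were 0.50 (counting interval 0.37 to 0.64), 0.59 (0.18 to 1.03) and 2.92 (2.70 to 3.15). In each pair the cold library held the higher value, and the interval for iWAT lay above those for mPRAT and iBAT. With 1 library on each side these intervals cover counting error only, and C7 was not called in the cold in either setting. Past 2-fold and at least 20 UMIs, 6.17% of genes were higher and 13.6% lower in iWAT, 16.0 and 7.94% in iBAT, and 6.85 and 4.22% in mPRAT. F3 moved in different directions, from 166 to 90.0 CPM in mPRAT, from 301 to 444 in iBAT and from 97.5 to 264 in iWAT.

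Whether the difference between Fmo2-positive and Fmo2-zero nuclei changed with cold was tested over the same pairs. Of 10606 genes 1 was called (0.00943%), Gabrg3, a GABA receptor subunit, at 6.35 ± 0.96 (adjusted p = 0.0474, edgeR). It was also the only call of 9398 genes (0.0106%) without mesothelial-marked nuclei. DESeq2 called 0, with 110 genes at an unadjusted p below 0.05, against 381 for edgeR. Without the iBAT pair edgeR called 0, without the mPRAT pair 14 and without the iWAT pair 13. Gabrg3 was at 66.8 CPM in Fmo2-positive and 4.84 in Fmo2-zero nuclei of cold mPRAT, and at 9.47 and 105 at room temperature, and it had 0 UMIs in Fmo2-positive nuclei of iBAT and iWAT at 6 months.

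Between 2 and 6 months, over mPRAT, iBAT and lPRAT pairs at room temperature, 2 of 5755 genes were called, both lower at 6 months (0.0348%): Gabrg3 at -2.90 ± 0.50 (adjusted p = 0.029, edgeR) and Gm26917 at -2.02 ± 0.30 (0.00674). DESeq2 called 1, and its adjusted p for Gabrg3 was 0.0683. Without the iBAT pair edgeR called 18 and without the lPRAT pair 8. Gabrg3 was at 34.5, 108 and 230 CPM at 2 months in mPRAT, iBAT and lPRAT and at 9.47, 0 and 24.8 at 6 months. The iBAT values came from 23 and 29 nuclei and thus rest on few UMIs. Without mesothelial-marked nuclei 0 of 2948 were called, with 131 at an unadjusted p below 0.05. None of 8 regulatory genes was called, with F3 at 0.92, Igfbp3 at 1.41, Meox2 at 1.43, Vit at 0.62, Mgp at 0.51, Cpe at -0.25, Gdf10 at -0.18 and Rspo2 at 0.09. The lPRAT library at 2 months had 49 Fmo2-positive nuclei and that of iBAT 23, and the size of change that this comparison could detect was not tested.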

How the data were processed

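Nuclei from 12 libraries, 1 per group, had been sorted by 7-AAD and sequenced with the 10x method, per the labels' protocols. The deposited values are raw counts of UMIs per gene and barcode, made by the authors with Cell Ranger 7.0.0, per the file headers and the submitters' processing notes, on mm10 per the same notes. Total counts per library were 5461133 to 87035783, and the lowest count per barcode was 500 to 501. Gene positions are from GENCODE M21, in which 32158 of 32285 identifiers were found. How the authors filtered barcodes is not given in the sources used here.

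The rule on nuclei is given above. Libraries shared at most 0.734% of the smaller library's barcodes, and no shared barcode was Fmo2-positive in both. Doublets were kept, with the removal of the highest doublet scores (0.8% per 1000 nuclei, scrublet in scanpy 1.11.5) as an alternative. Counts were summed per library and kind of nucleus (at least 10 nuclei) and tested with edgeR 4.0.16 in R 4.3.3 (quasi-likelihood test, TMM scaling, filterByExpr, Benjamini-Hochberg at 0.05, two-sided), with a term for each library or pair, and with DESeq2 1.42.0 as an alternative. Rule genes were left out. Single pairs were set side by side with exact counting intervals at 95%. Simulated data with 4 known changes were recovered in 91.5 to 100% of changed genes for the comparison of Fmo2-positive with Fmo2-zero nuclei over 10737 genes. The planted changes were log2 folds of -2, -1, 1 and 2 in well-counted genes only. Recovery of smaller folds and of genes with few UMIs was not tested.

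Named genes were, among those called at a mean of at least 20 CPM in 1 kind and in the same direction in at least 10 libraries, the 15 with the largest positive and the 10 with the largest negative fold, 8 each way for paired comparisons, the 8 smallest p for the depot test, up to 5 examples per list, and all regulatory genes. Bank1, Cacna1e, Gabrg3 and Gm26917 are named because few genes were called, and genes given by kind of nucleus or by library were chosen after their values were seen. Some genes that meet the rule are not reported here. The members and all lists were chosen with earlier results of these data known.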

Additional observations from a re-analysis of the deposited data

Results flagged for a closer look

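The difference between Fmo2-positive and Fmo2-zero nuclei depended on the depot for 449 genes (edgeR test over all depots, adjusted p below 0.05). The 8 smallest adjusted p-values were those of Rbfox1 (1.24e-13), Igfbp5 (1.52e-08), Ebf1 (1.64e-08), Thsd7a (3.44e-08), Arhgap24 (3.1e-07), Cped1 (1.04e-06), Ebf2 (1.04e-06) and Scara5 (1.04e-06). Without mesothelial-marked nuclei they were 0.0491, 0.438, 0.0494, 0.676, 0.401, 0.23, 0.479 and 0.607 in the same order. For Ebf1, a factor of early adipocyte development, Fmo2-positive nuclei of lPRAT had 367 and 693 CPM at 2 and 6 months, against 4283 and 4152 in Fmo2-zero nuclei.

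The difference changed with cold for 1 gene, Gabrg3, with an adjusted p of 0.0474 by edgeR and 1 by DESeq2.

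Nuclei of lPRAT at 6 months that were classed by endothelial genes, and that enter no comparison, held an Fmo2 UMI in 33.3% after thinning (39 of 117), while the macrophage class of that library gave 1.01%.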

How the results depend on the processing

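No paired analysis was possible by replicate number because every group has 1 library, and the pairs and library terms above match libraries by depot, condition or source. The share of ASPC nuclei with Fmo2 differed with thinning, which also leaves out shallower nuclei. Not thinned, it was 37.6, 24.7 and 58.9% in mPRAT at 2 and 6 months and in the cold, 29.3% in lPRAT at 6 months, 18.8% in cold iBAT, and 7.72% in warm and 8.58% in cold iWAT. Thinned to 2000 UMIs, it was 42.2, 35.7, 18.7 and 57.8% in mPRAT at 1, 2 and 6 months and in the cold, 10.99 and 6.58% in iBAT at 1 and 2 months and 16.7% in the cold, 21.4 and 36.5% in lPRAT at 2 and 6 months, and 6.11% in warm and 6.23% in cold iWAT. Without a UMI of the other-type rule genes it was 1.52% in iBAT at 6 months and 17.4% in cold iBAT. With at most 2% mitochondrial UMIs it was 3.28% in lPRAT at 2 months. Without mesothelial-marked nuclei it was 2.45 and 4.52% in lPRAT at 2 and 6 months.

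The count of genes that differed between Fmo2-positive and Fmo2-zero nuclei, 824, was 452 with depth matched, 437 thinned to 1000 UMIs, 375 without mesothelial-marked nuclei, 294 also without nuclei of the other marker lists, 234 with depth matched and no mesothelial UMI, 274 in iBAT and iWAT alone and 272 in mPRAT and lPRAT without mesothelial UMIs. Leaving out 1 library gave 614 to 880. The depot test gave 685 with no filter on low counts, 120 without mesothelial-marked nuclei and 345 to 512 without 1 library. The comparison of mPRAT with iBAT gave 381 without mesothelial-marked nuclei and 448 to 705 without 1 pair. For the change of the difference with cold, DESeq2 and edgeR without TMM gave 0, no filter gave 49 and leaving out 1 pair gave 0 to 14. For cold, DESeq2 and doublet removal gave 0, no filter 118, no mesothelial UMI 17 and leaving out 1 pair 1 to 11. For age, DESeq2, no TMM and nuclei of at least 1000 UMIs and 500 genes gave 1 each, no filter 30, doublet removal 9, no mesothelial UMI 0 and leaving out 1 pair 2 to 18. The cause of these shifts was not tested.

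For single genes in the comparison of Fmo2-positive with Fmo2-zero nuclei, 2175 of 2474 alternative values kept direction and side of the threshold, 236 lost the call, 40 gained it and 23 reversed. In mPRAT and lPRAT alone these were F3 (-0.15), Meox2 (-1.18) and Vit (-0.31), and there without mesothelial UMIs Bmpr1b (-0.026), Cpe (-0.074), Gsta3 (-0.21), Aldh1a3 (0.14) and Wt1 (-0.63). Wt1 was also reversed in the other settings without mesothelial UMIs: -0.65 in all libraries, -0.52 without the other marker lists and -0.56 with depth matched. With the other marker lists left out Gsta3 (-0.021), Abcc9 (0.92) and Cdh19 (0.010) were reversed, and with depth matched and no mesothelial UMI Ggt5 (0.0075). Igfbp3 was reversed by DESeq2 (-0.0060), in iBAT and iWAT alone (-0.22) and without 1 library spanned -0.12 (without mPRAT at 6 months) to 0.41. Abcg1 was reversed with doublets removed (-0.16), in deeper nuclei (-0.11) and without 1 library spanned -0.22 to 0.18, with -0.22 and -0.054 without the cold and the warm iBAT library at 6 months. Myh4 was reversed by DESeq2 (0.68). In the cold, uncalled genes reversed when 1 pair was left out, with ranges of -0.20 to 1.03 for F3, -0.089 to 1.07 for Cpe, -1.26 to 1.59 for Gdf10, -0.80 to 0.25 for Rspo2 and -0.57 to 0.48 for Vit. Gdf10 was also reversed by DESeq2 (0.091) and without mesothelial UMIs (0.020), and without iBAT Gdf10 and Vit were at 0.011. With age the ranges were -0.39 to 0.44 for Rspo2 and 0.11 (without iBAT) to 0.85 (without lPRAT) for Gdf10, and Rspo2 was reversed by DESeq2 (-0.0071) and without mesothelial UMIs (-0.0065). In the comparison of mPRAT with iBAT 695 of 736 values were kept, 39 lost the call, 2 gained it and 0 reversed.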
